A study of Mus musculus with 12 samples.

Results

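Collagen chains and the enzymes that modify, fold and crosslink them were followed in cells of 2 mouse mammary tumour lines in which Nedd4 had been targeted. The genes were taken by name: every gene with the symbol of a collagen chain, the lysyl oxidases Lox, Loxl1, Loxl2, Loxl3 and Loxl4, the lysyl hydroxylases Plod1, Plod2 and Plod3, the prolyl 4-hydroxylase subunits P4ha1, P4ha2 and P4ha3, and the chaperone Serpinh1. These were 56 of the 56691 genes in the deposited tables, of which 44 were chains and 12 were enzymes or the chaperone. At least 10 counts in any library were reached by 38 of them, 26 chains and all 12 others. The remaining 18 chains had at most 8 counts in any library, and 4 of these were at 0 counts in all 12 libraries. Just inside this limit lay Col4a4, Col9a3 and Col6a3 with highest counts of 11, 13 and 18, and just outside it lay Col24a1 and Col2a1 with 8 each and Col6a5 with 6.

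Messenger RNA was sequenced from 4T1 and EMT6, both mouse mammary carcinoma lines, grown in DMEM with fetal bovine serum. The 4 groups of libraries were 4T1 KO, 4T1 control, EMT6 KO and EMT6 control, with 3 libraries in each. The KO cells are described as sgNEDD4 derivatives, a name of the form given to cells that received a CRISPR guide RNA, and the control cells carry the genotype label WT. No other allele or agent is named for any group, and no source used here gives the position of the guide or says whether the KO cells are 1 clone or a pool. Separate cultures are not stated for the libraries of a group either, so the p-values measure only the spread between these libraries, which may be technical.

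Collagens are trimeric proteins of the extracellular matrix. Fibrillar chains such as those of types I, III and V build fibrils, type IV chains form the network of basement membranes, type VI chains form beaded filaments, type VIII chains form short-chain networks, and fibril-associated chains such as those of types XII and XVI sit on fibril surfaces. In the endoplasmic reticulum, prolyl 4-hydroxylases and lysyl hydroxylases modify the nascent chains and Serpinh1, also called HSP47, holds the folded procollagen, and outside the cell lysyl oxidases start the crosslinking of the deposited fibres.

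The libraries held between 13705612 and 19761604 counts, so that 3 counts, the limit that a count of 0 allows, correspond to between 0.152 and 0.219 CPM (counts scaled to the library total). Such limits cover counting error only. Levels are given as the authors' FPKM, counts scaled to exonic gene length and library total, and in this text ± after a mean FPKM is the SD over 3 libraries. KO effects are log2 of KO over control from edgeR's quasi-likelihood test on the counts, with ± as the SE of the fit, and p-values adjusted by Benjamini-Hochberg over all genes tested in a line. A gene is called where its adjusted p is under 0.05. Nedd4, the targeted ubiquitin ligase, stood at 24.7, 24.9 and 25.3 FPKM in 4T1 KO libraries, against 94.4, 97.6 and 93.5 FPKM in 4T1 controls, and at 12.1, 11.5 and 12.1 FPKM in EMT6 KO libraries, against 122.5, 121.4 and 116.5 FPKM in EMT6 controls. KO and control libraries differed in much of the transcriptome: 57.0% of the 13313 tested genes of 4T1 (28.0% higher in KO, 29.0% lower) and 56.0% of the 12890 tested genes of EMT6 (27.9% higher, 28.2% lower) were called. Libraries of 4T1 KO had between 20937 and 21264 genes with a count, against 18836 to 19017 in 4T1 controls, and those of EMT6 KO had 18119 to 18371, against 18014 to 18833 in EMT6 controls.

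The lines differed in the collagens they expressed. In 4T1, the chain FPKM summed to 462 ± 3.81 in KO and 368 ± 3.92 in control libraries. Col18a1, the chain whose C-terminal fragment is endostatin, made up 24.7% of that sum in 4T1 KO and 27.3% in 4T1 control, and the basement membrane chain Col4a1 made up 21.4% in 4T1 KO and 26.7% in 4T1 control. The short-chain Col8a1 made up 19.6% in 4T1 KO and 13.8% in 4T1 control, and the other basement membrane chain Col4a2 17.6% in 4T1 KO and 18.1% in 4T1 control. In EMT6, the sum was 870 ± 54.3 in KO and 665 ± 25.7 in control libraries. The type I chain Col1a2 made up 37.1% of it in EMT6 KO and 29.9% in EMT6 control, and its partner Col1a1 made up 23.2% in EMT6 KO and 24.7% in EMT6 control. The fibril-associated Col12a1 held 10.5% in EMT6 KO and 10.4% in EMT6 control, Col6a1 held 8.43% in EMT6 KO and 7.82% in EMT6 control, and Col8a1 held 3.86% in EMT6 KO and 8.60% in EMT6 control. Col4a1 and Col4a2 were thus leading chains of 4T1, while neither had more than 4 counts in any EMT6 library. Conversely, Col1a1 and Col1a2 led in EMT6 and had at most 30 and 7 counts in any 4T1 library, and Lox had at most 1 in 4T1. The FPKM are scaled within each library, and levels were not tested between the lines, so these contrasts of level are a description. In these bulk libraries, fewer cells that express a gene and less RNA of it per cell cannot be told apart.

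**Figure D1:**
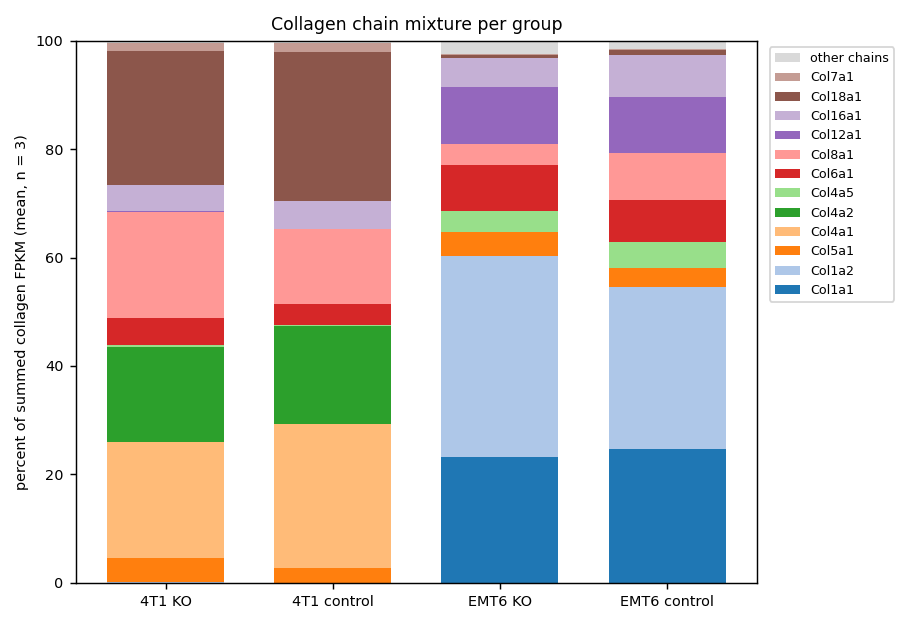
Mean percent of the summed collagen FPKM taken by each chain in 4T1 KO, 4T1 control, EMT6 KO and EMT6 control (n = 3 libraries each; stacked from Col1a1 at the bottom to all remaining chains at the top). Col18a1, Col4a1, Col8a1 and Col4a2 fill most of the 4T1 bars, and Col1a2 (37.1% in EMT6 KO, 29.9% in EMT6 control) and Col1a1 most of the EMT6 bars.

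In 4T1, 16 of the 25 tested genes were called higher in KO, 4 were called lower and 5 were not called. Thus 80.0% were called, against 57.0% of all tested genes of the line, and their median log2 change was 0.21, against 0.00 over all tested genes. The 2 groups of libraries were fully separated for 21 of the 25, against 61.9% of all tested genes. All 4 genes called lower were hydroxylases (P4ha1, P4ha2, Plod2 and Plod3), while of the 16 tested chains 11 were called higher and 0 lower by edgeR. No chain fell at an unadjusted p under 0.05 either, and DESeq2 and limma-voom also called 0 lower. Restricted to the 23 genes with a mean of at least 10 counts in both groups, 14 were called higher and 4 lower with a median of 0.21. The share of calls varied with level in 4T1. Among all tested genes under 1 FPKM, 34.8% were called higher and 9.78% lower, and of the 9 tested members under 1 FPKM 6 were called higher and 0 lower by edgeR (0 lower also at an unadjusted p under 0.05, with DESeq2 and with limma-voom). Of these 6, Col5a3 and Col20a1 averaged under 10 counts in controls and passed the low-count filter through their KO libraries. They could thus hardly have been tested without being higher in KO. Among all genes of at least 1 FPKM, 26.7% were called higher and 32.5% lower, and of the 16 tested members at that level 10 were called higher and 4 lower. Libraries of 4T1 KO had more genes with a count than their controls, and the part of this in the calls of low genes was not tested. With libraries scaled by total counts only, 61.2% of all calls in 4T1 were higher in KO, against 49.1% with TMM scaling, and the median of all genes moved to 0.08. Under that scaling 17 members were called higher and the same number, 4, lower.

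The fibrillar chain Col5a1, which controls the diameter of type I fibrils and lies on chromosome 2 at 27776437 to 27929526, plus strand, in the tables, had the largest change in 4T1 of all members called at 1 FPKM or more. It had 20.4, 21.0 and 20.3 FPKM in KO libraries, against 9.57, 9.43 and 10.1 FPKM in control libraries. Every KO library lay far above every control library (fold 2.01, log2 change 1.00 ± 0.05, adjusted p = 1.84e-14). Col8a1, a chain best known from Descemet's membrane of the cornea that the tables place on chromosome 16 at 57444621 to 57575100, minus strand, had 90.0, 89.0 and 92.2 FPKM in KO and 50.3, 50.9 and 51.6 FPKM in control libraries, a log2 change of 0.75 ± 0.04 (adjusted p = 2.66e-13). Its level in KO cells placed it close to the basement membrane chains. Col6a1 of the beaded filaments had 23.1, 22.3 and 23.6 FPKM in KO and 14.60, 14.27 and 13.99 FPKM in control libraries (0.61 ± 0.05, adjusted p = 5.11e-10). In all 3 genes the KO and control libraries lay far apart compared with the spread inside a group.

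Of the abundant type IV chains of 4T1, which form the network of basement membranes, Col4a2 was called and Col4a1 was not. Col4a1 had 100.3, 98.1 and 98.5 FPKM in KO and 97.4, 98.3 and 98.9 FPKM in control libraries; the groups overlapped and the gene was not called (-0.07 ± 0.04, adjusted p = 0.161; the FPKM carry no TMM factor, so small differences can have the other sign on that scale). Col4a2 had 82.8, 80.3 and 81.2 FPKM in KO and 63.8, 68.5 and 67.5 FPKM in control libraries, every KO library above every control (0.21 ± 0.04, adjusted p = 0.00024). The ratio of Col4a1 to Col4a2 FPKM was 1.21 ± 0.0049 in KO and 1.48 ± 0.0476 in control libraries, again without overlap. The exact 2-sided permutation test gave p = 0.1, which is the smallest value that 3 against 3 libraries allow. Type IV collagen of most basement membranes is a trimer of Col4a1 and Col4a2 chains, and the genes lie head to head. The deposited tables place Col4a1 on chromosome 8 at 11248423 to 11362826 on the minus strand and Col4a2 at 11362805 to 11499287 on the plus strand, an overlap of 22 bases. Another type IV chain, Col4a5, was low in 4T1 controls and had 1.32, 1.10 and 1.14 FPKM in KO, against 0.16, 0.19 and 0.21 FPKM in control libraries (2.61 ± 0.20, adjusted p = 1.15e-10). This was the largest log2 change of the set in 4T1. The gene falls under the level limit of the rule for values per library and was chosen after its values were seen.

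The windows around the starts of Col4a1 and Col4a2 are shown because the neighbouring genes share their start region while only Col4a2 was called. They run from 250 bases before to 50 bases after each gene's start in RefSeq on GRCm38.p6, each 5′ to 3′ on its own gene's strand, at chr8:11312777-11313076 on the minus strand for Col4a1 and chr8:11312555-11312854 on the plus strand for Col4a2. Capitals mark the 78 bases that both windows hold, on opposite strands.
Col4a1: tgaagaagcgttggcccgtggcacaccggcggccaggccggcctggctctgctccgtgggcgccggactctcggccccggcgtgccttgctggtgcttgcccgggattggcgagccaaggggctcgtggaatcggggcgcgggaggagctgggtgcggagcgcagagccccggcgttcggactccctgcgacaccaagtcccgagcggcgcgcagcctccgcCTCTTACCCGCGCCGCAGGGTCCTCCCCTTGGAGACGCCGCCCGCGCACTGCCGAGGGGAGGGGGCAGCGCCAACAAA
Col4a2: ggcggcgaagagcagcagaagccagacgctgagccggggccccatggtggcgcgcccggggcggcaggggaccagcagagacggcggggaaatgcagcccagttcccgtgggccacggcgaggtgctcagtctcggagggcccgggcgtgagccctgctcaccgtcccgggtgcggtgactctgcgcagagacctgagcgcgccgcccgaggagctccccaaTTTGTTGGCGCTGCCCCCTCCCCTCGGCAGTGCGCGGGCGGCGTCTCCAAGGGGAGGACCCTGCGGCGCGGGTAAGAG
The starts lie 21 bases apart in this annotation, so that 22 bases are transcribed on both strands. The build differs from the coordinates in the deposited tables, which match no annotation used here and are given as deposited, without a build.

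Multiplexin and fibril-associated chains of 4T1 showed small changes or lay at low levels. Col18a1, the most abundant chain, had 114, 112 and 116 FPKM in KO and 102, 98.5 and 101 FPKM in control libraries. Its call was marginal (0.10 ± 0.04, adjusted p = 0.0291) and was lost without KO library 1, 2 or 3, without control library 1 or 3 (adjusted p 0.0510 to 0.0799) and without the low-count filter. Col16a1 had 21.8, 23.1 and 22.0 FPKM in KO and 18.8, 19.4 and 19.8 FPKM in control libraries (0.13 ± 0.05, adjusted p = 0.0237), and this call was lost without KO library 2 (adjusted p = 0.149) or control library 1 (adjusted p = 0.111) and without the low-count filter (adjusted p = 0.150). Among low genes, Col12a1 was called higher with 0.483 ± 0.0252 FPKM in KO and 0.143 ± 0.0351 FPKM in control libraries (1.71 ± 0.19), as was Col5a3 with 0.187 ± 0.0321 FPKM in KO and 0.0333 ± 0.0115 FPKM in control libraries (2.39 ± 0.46). Col6a2, the usual partner of Col6a1, was called at 0.707 ± 0.107 FPKM in KO and 0.437 ± 0.136 FPKM in control libraries (0.60 ± 0.20, adjusted p = 0.0119), a call lost without KO library 1 or control library 1 or 3 (adjusted p 0.0576 to 0.0811). Col20a1 was called at 0.217 ± 0.0404 FPKM in KO and 0.11 ± 0.0265 FPKM in control libraries (adjusted p = 0.0452) and lost its call in 8 alternatives, among them DESeq2 (adjusted p = 0.120) and every left-out library but KO library 1. The 5 genes not called were Col1a1, Col4a1, Col7a1, Col11a2 and Col17a1. Of these, Col1a1 had 19, 19 and 30 counts in KO and 10, 9 and 13 counts in control libraries (0.81 ± 0.36, adjusted p = 0.057), and it was called with total-count scaling (adjusted p = 0.0376) and without control library 3 (adjusted p = 0.0427). The 13 genes that did not pass the filter on low counts in 4T1 were Col1a2, Col3a1, Col4a4, Col5a2, Col6a3, Col6a4, Col8a2, Col9a3, Col15a1, Col27a1, Lox, Loxl2 and P4ha3, and 6 of them had at least 10 counts in a 4T1 library.

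All 3 tested lysyl oxidases of 4T1 were called higher, and the tested hydroxylases of the set apart from Plod1 were called lower. Lox and Loxl2 had too few counts to test. Loxl4 had 24.2, 23.8 and 25.1 FPKM in KO and 15.1, 15.0 and 14.5 FPKM in control libraries (0.64 ± 0.05, adjusted p = 2.27e-10). Loxl3 had 6.73, 6.28 and 6.64 FPKM in KO and 4.10, 4.08 and 4.34 FPKM in control libraries (0.57 ± 0.08, adjusted p = 1.58e-06). Both genes had all KO libraries above all controls, as did the lower Loxl1, which averaged 1.14 ± 0.247 FPKM in KO and 0.447 ± 0.0208 FPKM in control libraries (1.27 ± 0.25).

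Both tested prolyl 4-hydroxylase subunits, the catalytic chains that stabilise the triple helix by hydroxylating proline, were lower in 4T1 KO. P4ha1 had 27.9, 33.0 and 29.9 FPKM in KO and 34.0, 37.2 and 40.2 FPKM in control libraries (-0.37 ± 0.06, adjusted p = 7.03e-05). P4ha2 had 2.52, 2.76 and 2.99 FPKM in KO and 3.12, 3.54 and 4.12 FPKM in control libraries (-0.45 ± 0.10, adjusted p = 0.000534). The highest KO library of each gene lay just under its lowest control. Among the lysyl hydroxylases, Plod2, which acts on the telopeptides, had 22.9, 25.8 and 24.6 FPKM in KO and 26.0, 28.5 and 31.0 FPKM in control libraries (-0.30 ± 0.06, adjusted p = 0.000146). Plod3, which also glycosylates hydroxylysine, had 23.0, 22.6 and 23.0 FPKM in KO and 26.7, 28.2 and 29.2 FPKM in control libraries (-0.37 ± 0.05, adjusted p = 7.16e-07). These 4 decreases were called under every alternative run, including each left-out library. Plod1, which acts on the helix, went the other way with 7.43, 7.21 and 7.87 FPKM in KO and 5.73, 6.22 and 6.57 FPKM in control libraries (0.21 ± 0.06, adjusted p = 0.00904); this call was lost without control library 1 (adjusted p = 0.0787). Serpinh1, the most abundant gene of the whole set in 4T1, had 167, 179 and 189 FPKM in KO and 153, 148 and 157 FPKM in control libraries. It was slightly higher in KO (0.15 ± 0.04, adjusted p = 0.00636), a call lost without KO library 3 (adjusted p = 0.0511).

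**Figure D2:**
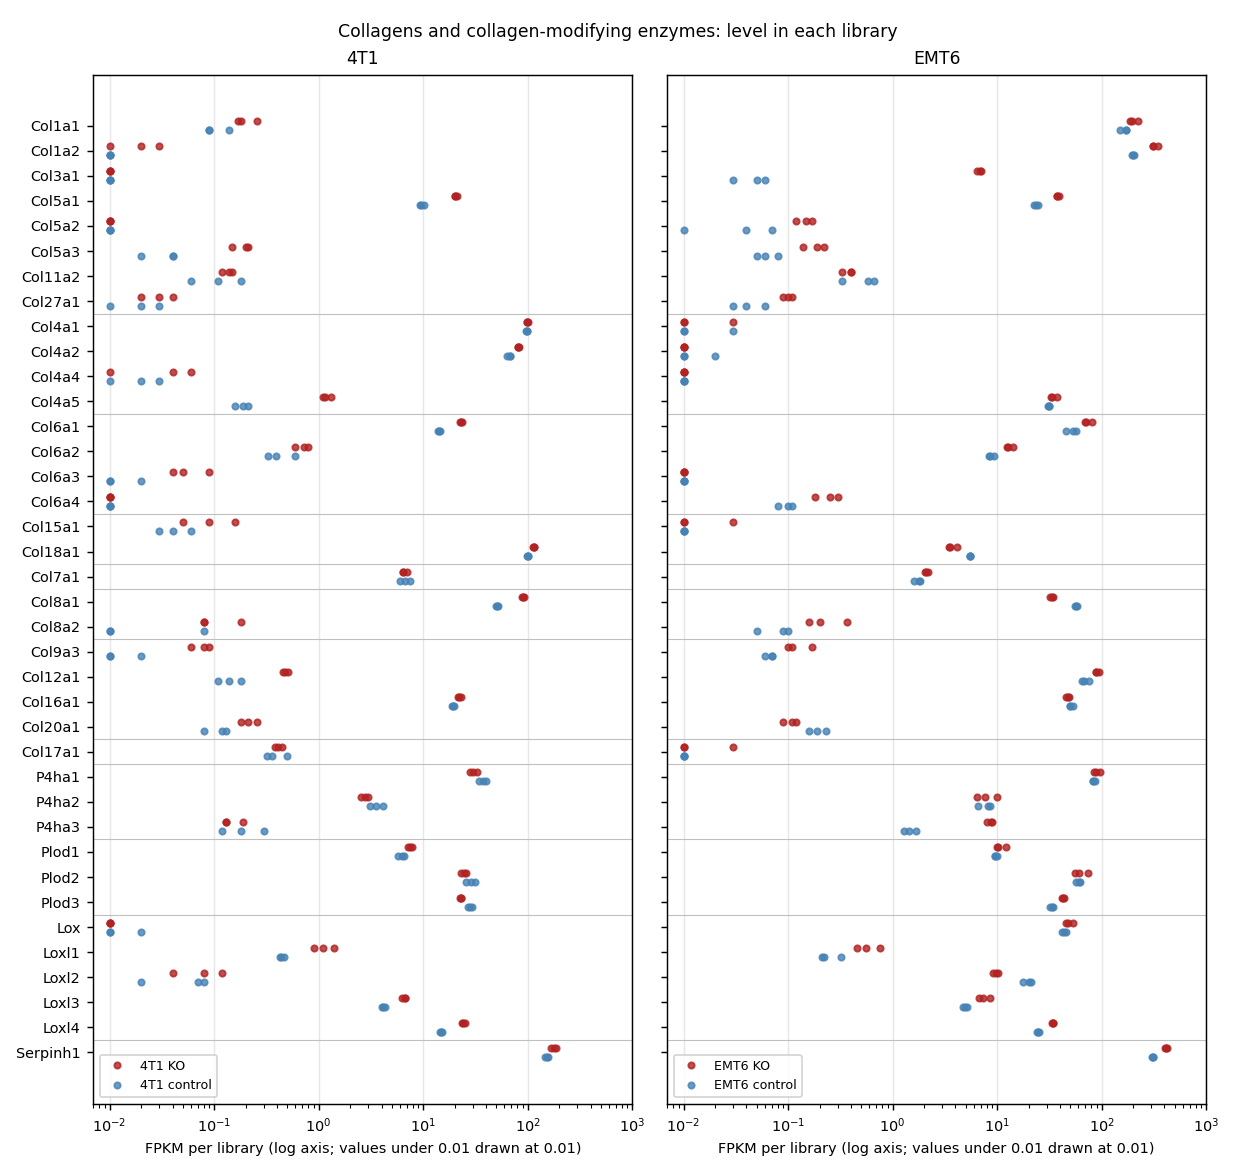
FPKM of the 38 genes in each library on a log axis, 4T1 left and EMT6 right, with KO libraries in red above control libraries in blue, and values under 0.01 FPKM drawn at 0.01. Serpinh1 is high in both lines (167 to 189 FPKM in 4T1 KO, 405 to 422 FPKM in EMT6 KO), while Col1a1, Col1a2 and Lox are high in EMT6 and Col4a1 and Col4a2 in 4T1.

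In EMT6, 21 of the 31 tested genes were called higher in KO, 3 were called lower (Col8a1, Col18a1 and Loxl2) and 7 were not called. Thus 77.4% were called, against 56.0% of all tested genes of the line, with a median log2 change of 0.39, against 0.00 over all tested genes. Full separation of the 2 groups was found for 26 of the 31, against 62.6% of all tested genes. Of the 19 tested chains, 14 were called higher and 2 lower, and of the 12 enzymes, with the chaperone among them, 7 were called higher and 1 lower. With the 27 genes that averaged at least 10 counts in both groups, 17 were called higher and 3 lower, with a median of 0.30. Of all tested EMT6 genes under 1 FPKM, 18.6% were called higher and 23.1% lower, while of the 8 members at that level 6 were called higher and 0 lower by edgeR (1 lower at an unadjusted p under 0.05, and 0 lower with DESeq2 and with limma-voom). Of these 6, Col5a2, Col5a3 and Col8a2 averaged under 10 counts in controls and passed the low-count filter through their KO libraries. Their direction thus came with being tested. At 1 FPKM or more, 29.5% of all genes were called higher and 29.1% lower, and of the 23 members 15 were called higher and 3 lower. The 15 include Col3a1, which also averaged under 10 counts in controls and passed the low-count filter through its KO libraries. The 7 genes with too few counts to test in EMT6 were Col4a1, Col4a2, Col4a4, Col6a3, Col9a3, Col15a1 and Col17a1, of which Col9a3 had at least 10 counts in a library.

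**Figure D3:**
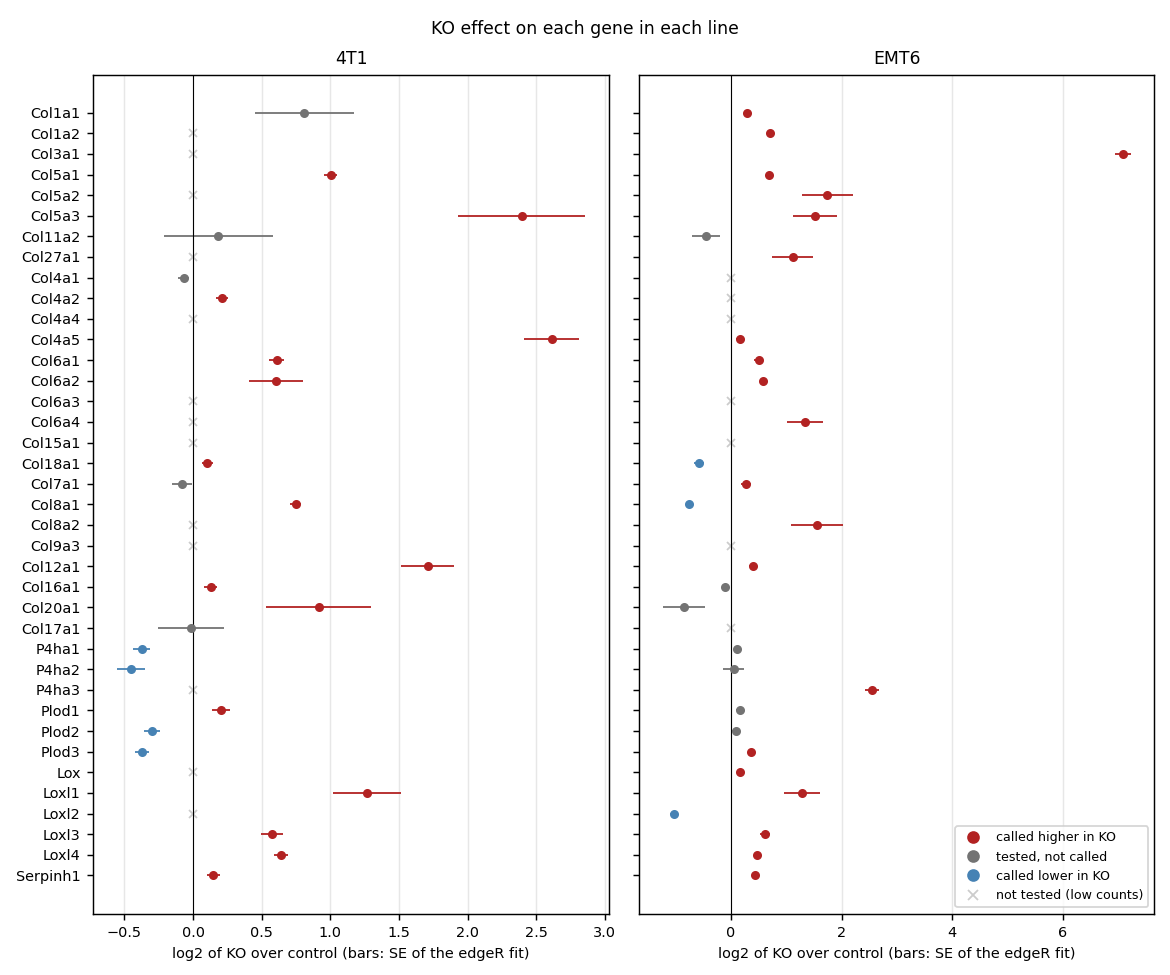
Fitted log2 of KO over control for each gene in 4T1 (left) and EMT6 (right), with the SE of the edgeR fit as bars and a different axis range in each panel; crosses at 0 mark genes with too few counts to test. The chains lie at or above 0 in 4T1 except for changes not called, P4ha1, P4ha2, Plod2 and Plod3 lie below 0 there, and Col3a1 lies at 7.09 in EMT6.

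Of the 8 fibrillar chains tested in EMT6, 7 were called higher and 0 lower by edgeR (0 lower also at an unadjusted p under 0.05, with DESeq2 and with limma-voom). Of all tested genes of EMT6, 27.9% were called higher and 28.2% lower. Col3a1, Col5a2 and Col5a3 averaged under 10 counts in controls and passed the low-count filter through their KO libraries. Of the other 5 fibrillar chains, 4 were called higher and 0 lower. Col3a1, the type III chain that assembles with type I collagen in soft tissue, had 1214, 1364 and 1068 counts in KO libraries, against 4, 11 and 10 counts in control libraries. As FPKM these were 6.37, 7.03 and 6.91 in KO and 0.03, 0.06 and 0.05 in control libraries. From the summed counts, 3646 in KO and 25 in control libraries, the ratio was 138 with a 95% interval from counting error of 93.0 to 213, and the fitted log2 change was 7.09 ± 0.15 (adjusted p = 1.96e-15). In 4T1, Col3a1 had 0 counts in all 6 libraries. The tables place the gene on chromosome 1 at 45350698 to 45388866, plus strand. Its neighbour Col5a2, on the opposite strand 24614 bases away in the tables' coordinates of chromosome 1, had 27, 22 and 25 counts in KO and 1, 7 and 13 counts in control libraries. The summed counts, 74 in KO and 21 in control libraries, gave a ratio of 3.32 with a 95% counting interval of 2.02 to 5.68 (fitted log2 change 1.74 ± 0.46, adjusted p = 0.00433). Col5a2 stayed below 1 FPKM in every EMT6 library.

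Type I collagen, a trimer of Col1a1 and Col1a2 chains, was the main collagen of EMT6. Col1a2, on chromosome 6 at 4504814 to 4541544, plus strand, in the tables, had 312, 309.6 and 348 FPKM in KO and 202, 199 and 194 FPKM in control libraries (0.70 ± 0.06, adjusted p = 8.41e-08) and every KO library lay far above every control. Col1a1 had 196, 189 and 221 FPKM in KO and 173, 169.8 and 152 FPKM in control libraries, a smaller difference (0.30 ± 0.07, adjusted p = 0.00171) that also left the groups apart. The FPKM ratio of Col1a1 to Col1a2 was 0.625 ± 0.0126 in KO and 0.829 ± 0.0412 in control libraries, and the exact 2-sided permutation test gave p = 0.1, the smallest value possible here. Col5a1 had 37.7, 37.0 and 38.9 FPKM in KO and 24.8, 23.4 and 22.4 FPKM in control libraries (0.69 ± 0.05, adjusted p = 2.38e-08). The minor fibrillar chain Col5a3 was called higher at 0.183 ± 0.0404 FPKM in KO and 0.0633 ± 0.0153 FPKM in control libraries (1.52 ± 0.40), and Col27a1 at 0.1 ± 0.01 FPKM in KO and 0.0433 ± 0.0153 FPKM in control libraries (1.11 ± 0.37). The Col27a1 call was lost without KO library 3 (adjusted p = 0.0595) or control library 2 (adjusted p = 0.0802). Col11a2 was not called (-0.46 ± 0.25, adjusted p = 0.136) but was called lower without control library 2 (adjusted p = 0.0154).

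The start windows of Col3a1 and Col1a2 are shown because these fibrillar chains rose in EMT6 KO and had very different levels in control cells, and that of Col8a1 because its change had opposite signs in the lines. The RefSeq windows on GRCm38.p6 lie at chr1:45311288-45311587 (plus strand) for Col3a1, chr6:4505368-4505667 (plus strand) for Col1a2 and chr16:57754688-57754987 (minus strand) for Col8a1. Each is written 5′ to 3′ on the gene's strand with its gene start after 250 bases, and capitals mark TATAAA and CCAAT read on either strand.
Col3a1: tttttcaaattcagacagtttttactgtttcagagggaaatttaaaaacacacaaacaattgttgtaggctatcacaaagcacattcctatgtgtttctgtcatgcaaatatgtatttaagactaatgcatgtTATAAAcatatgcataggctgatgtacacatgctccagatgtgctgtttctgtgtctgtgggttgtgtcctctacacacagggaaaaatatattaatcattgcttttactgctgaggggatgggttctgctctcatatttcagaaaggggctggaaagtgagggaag
Col1a2: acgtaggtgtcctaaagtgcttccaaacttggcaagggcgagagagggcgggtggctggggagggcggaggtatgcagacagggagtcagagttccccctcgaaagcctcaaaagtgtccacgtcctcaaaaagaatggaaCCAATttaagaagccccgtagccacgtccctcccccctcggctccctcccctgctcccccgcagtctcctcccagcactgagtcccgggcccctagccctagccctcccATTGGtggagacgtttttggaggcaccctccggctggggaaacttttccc
Col8a1: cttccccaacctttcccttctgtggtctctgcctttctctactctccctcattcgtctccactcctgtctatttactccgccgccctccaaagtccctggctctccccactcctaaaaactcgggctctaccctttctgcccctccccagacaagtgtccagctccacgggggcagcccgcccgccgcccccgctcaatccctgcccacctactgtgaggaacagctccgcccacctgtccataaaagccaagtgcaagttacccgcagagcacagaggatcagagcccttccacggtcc
Col3a1 holds TATAAA once, 117 bases before its start, Col1a2 holds CCAAT once on each strand, and Col8a1 holds neither, so it has no capitals. Of the 38 genes, 29 had a window in the RefSeq table and 9 had none (Col1a1, Col5a2, Col9a3, Col12a1, Lox, Loxl1, Loxl2, Loxl3 and Plod2). On either strand, TATAAA stood in the windows of 5 of the 29 genes (17.2%, against 15.7% of all 27025 genes with a window), and CCAAT in 11 (37.9%, against 41.1%). ACGTG, the core of the hypoxia response element, stood in 8 (27.6%, against 21.8%). These were Col1a2, Col4a4, Col5a1, Col11a2, P4ha1, P4ha2, Plod3 and Serpinh1. The AP-1 motif TGANTCA stood in 1, Col6a1 (3.45%, against 8.97%). None of the 4 motifs contains another, and a match describes only the letters of the window.

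Of the remaining 11 tested chains of EMT6, 7 were called higher and 2 lower, against 27.9% and 28.2% of all tested genes of the line. The 7 include Col8a2, which averaged under 10 counts in controls and passed the low-count filter through its KO libraries. Col12a1 had 88.8, 88.3 and 95.4 FPKM in KO and 75.1, 67.5 and 65.4 FPKM in control libraries (0.39 ± 0.06, adjusted p = 5.03e-05). Col6a1 had 68.8, 71.1 and 80.3 FPKM in KO and 53.9, 56.8 and 45.5 FPKM in control libraries (0.50 ± 0.08, adjusted p = 0.000336). Its partner Col6a2 had 12.6, 12.7 and 14.1 FPKM in KO and 8.60, 9.32 and 8.39 FPKM in control libraries (0.58 ± 0.07, adjusted p = 1.57e-06). All 3 genes kept KO above control in every library, and the Col6a1 to Col6a2 ratio averaged 5.59 ± 0.112 in KO and 5.93 ± 0.443 in control libraries (exact permutation p = 0.4). Col6a4, Col4a5, Col7a1 and Col8a2 were also called higher, by 1.34, 0.15, 0.27 and 1.56 on the log2 scale. Of these, Col4a5 averaged 34.5 ± 2.26 FPKM in KO and 31.0 ± 0.466 FPKM in control libraries, and its call was lost without KO library 2 or 3 or control library 1 (adjusted p 0.0628 to 0.166). The Col7a1 call was lost without KO library 2 or 3 or control library 2 (adjusted p 0.0514 to 0.0726), and the Col8a2 call without KO library 1 (adjusted p = 0.0993).

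Col8a1 and Col18a1 were the chains called lower in EMT6 KO. Col8a1 had 33.7, 32.4 and 34.4 FPKM in KO and 56.0, 56.6 and 58.8 FPKM in control libraries (-0.77 ± 0.05, adjusted p = 4.32e-09). Col18a1 had 3.43, 3.52 and 4.12 FPKM in KO and 5.52, 5.52 and 5.50 FPKM in control libraries (-0.58 ± 0.08, adjusted p = 1.72e-05). No KO library of either gene reached a control library. Col16a1 and Col20a1 were not called (-0.11 ± 0.05, adjusted p = 0.0896, and -0.86 ± 0.38, adjusted p = 0.0643), although all KO libraries lay below all controls in both; Col16a1 was called lower without control library 3 (adjusted p = 0.0428).

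Among the enzymes of EMT6, the third prolyl 4-hydroxylase subunit had the largest change. P4ha3 had 7.94, 8.91 and 8.79 FPKM in KO and 1.67, 1.45 and 1.30 FPKM in control libraries (2.55 ± 0.12, adjusted p = 3.37e-11), a fold of 5.85. The more abundant P4ha1 had 85.5, 88.5 and 96.9 FPKM in KO and 82.6, 86.3 and 82.7 FPKM in control libraries and was not called (0.11 ± 0.06, adjusted p = 0.128). KO and control libraries of P4ha1 overlapped, and so did those of P4ha2 (0.04 ± 0.19), Plod1 (0.16 ± 0.08) and Plod2 (0.08 ± 0.09), which were not called either. Plod1 was called higher without KO library 1 (adjusted p = 0.0463) and without the low-count filter (adjusted p = 0.0239). Plod3 had 43.0, 41.9 and 43.7 FPKM in KO and 33.6, 34.5 and 31.9 FPKM in control libraries (0.36 ± 0.05, adjusted p = 3.21e-05). Serpinh1 had 405, 416 and 422 FPKM in KO and 305, 312 and 307 FPKM in control libraries (0.43 ± 0.05, adjusted p = 3.95e-06), and it had the highest FPKM of the whole set in this line too.

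Lysyl oxidases split in EMT6, with 4 called higher and 1 lower. Loxl2 had 9.13, 9.78 and 10.2 FPKM in KO and 20.2, 21.3 and 17.8 FPKM in control libraries (-1.03 ± 0.08, adjusted p = 1.07e-08). Loxl3 had 7.38, 6.77 and 8.50 FPKM in KO and 5.12, 4.72 and 4.94 FPKM in control libraries (0.62 ± 0.09, adjusted p = 2.5e-05). Loxl4 had 34.3, 34.7 and 33.4 FPKM in KO and 24.0, 25.2 and 24.9 FPKM in control libraries (0.47 ± 0.06, adjusted p = 2.15e-06). For Loxl2 every KO library lay below every control, and for Loxl3 and Loxl4 every KO library lay above. Loxl1 was called at 0.59 ± 0.147 FPKM in KO and 0.25 ± 0.0608 FPKM in control libraries (1.28 ± 0.33). Lox, the founding member of the family, averaged 49.1 ± 4.20 FPKM in KO and 43.9 ± 1.60 FPKM in control libraries (0.16 ± 0.06, adjusted p = 0.039). That call was lost with DESeq2 (adjusted p = 0.0528) and without KO library 2 or 3 or control library 1 or 3 (adjusted p 0.0772 to 0.218).

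**Figure D4:**
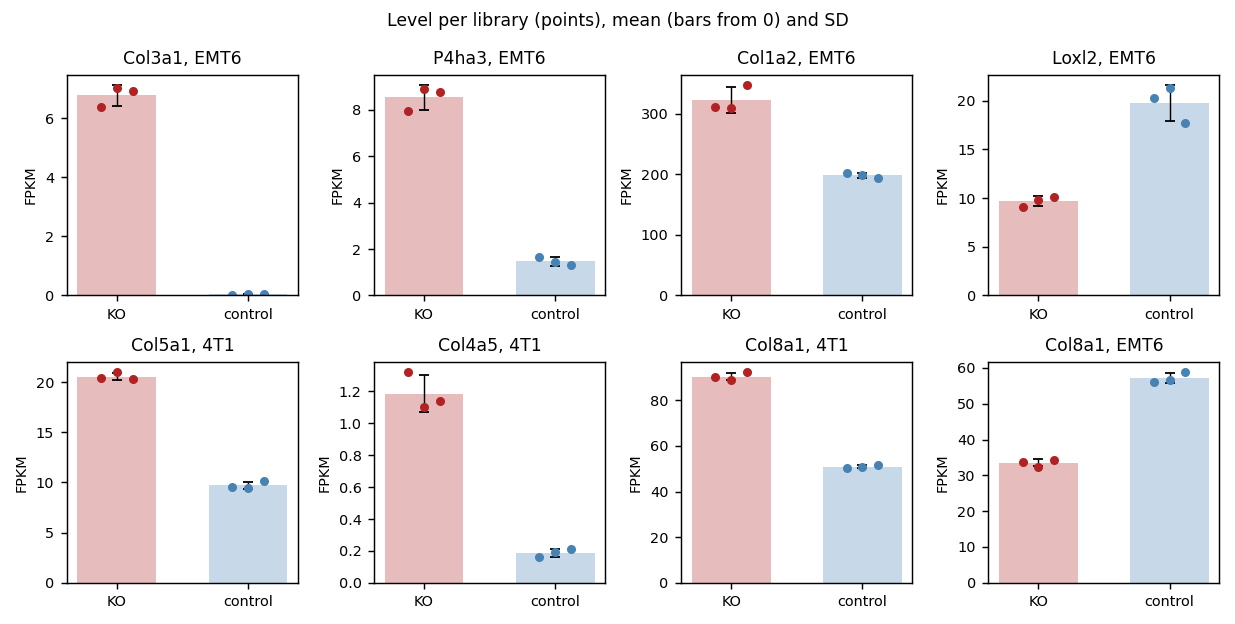
FPKM of 7 genes per library (points), with group means as bars from 0 and the SD as lines (n = 3), KO left of control; the panels were chosen after their values were seen. In EMT6, Col3a1 averages 6.77 FPKM in KO and 0.0467 FPKM in control libraries and Loxl2 is lower in KO, and Col8a1 is lower in EMT6 KO (33.5 FPKM) and higher in 4T1 KO (90.4 FPKM) than in the controls of that line.

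Both lines tested 22 of the 38 genes, 3 were tested in 4T1 alone, 9 in EMT6 alone and 4 in neither. Called higher in both lines were 10 genes: Col4a5, Col5a1, Col5a3, Col6a1, Col6a2, Col12a1, Loxl1, Loxl3, Loxl4 and Serpinh1. No gene was called lower in both. Per line, 28.0% of all tested genes were called higher in 4T1 and 27.9% in EMT6, and 29.0% and 28.2% lower. The share of all genes called the same way in both lines was not counted, so these counts are a description. Of the 10, Col5a3 averaged under 10 counts in the controls of each line and passed the low-count filter through its KO libraries. Its direction thus came with being tested. Col8a1 and Col18a1 were called lower in EMT6 and higher in 4T1, and Plod3 was called higher in EMT6 and lower in 4T1. The remaining 9 genes were called in 1 line only (8 genes) or in neither (Col11a2). Whether the KO effects differed was tested in 1 model of the 12 libraries by the line-by-knockout interaction. The difference was called for 13 of the 22 genes (59.1%), against 59.9% of all 12006 genes tested, so the share was close to that of the transcriptome. The EMT6 effect was the higher one in 5 genes and the lower one in 8, against 29.7% and 30.2% of all genes tested.

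Effects of opposite sign were called different in each of the 3 genes above. For Col8a1 the EMT6 effect minus the 4T1 effect was -1.54 on the log2 scale (edgeR, adjusted p = 3.61e-15), for Col18a1 -0.71 (adjusted p = 5.41e-08) and for Plod3 0.71 (adjusted p = 1.07e-08). The Col18a1 effect in 4T1 was itself marginal, as given above. Effects of the same sign but unequal size were found for Col4a5 (-2.48, adjusted p = 2.22e-11), Col12a1 (-1.34, adjusted p = 2.75e-07) and Col5a1 (-0.33, adjusted p = 0.000232), all larger in 4T1, and for Serpinh1 (0.26, adjusted p = 0.00164), larger in EMT6. Col4a5 and Col12a1 had low levels in 4T1 and high levels in EMT6, where Col12a1 averaged 90.8 ± 3.94 FPKM in KO and 69.3 ± 5.12 FPKM in control libraries. P4ha1 (0.46, adjusted p = 0.000125) and Plod2 (0.36, adjusted p = 0.0261) fell in 4T1 and were not called in EMT6. The Plod2 difference was lost in 7 alternatives, 6 of them left-out libraries (adjusted p 0.0512 to 0.0939). That of Loxl4 (-0.19, adjusted p = 0.027) was lost in 5, 4 of them left-out libraries (adjusted p 0.0558 to 0.0701). The Col7a1 difference (0.33, adjusted p = 0.0182) was lost without 4T1 control library 2 (adjusted p = 0.0703) or EMT6 control library 2 (adjusted p = 0.0596). Col16a1 (-0.26, adjusted p = 0.00213) and Col20a1 (-1.80, adjusted p = 0.00438) completed the 13, and the Col16a1 difference was lost without the low-count filter (adjusted p = 0.112). No difference was called for Col6a1 (-0.13, adjusted p = 0.28), Col6a2 (-0.04, adjusted p = 0.867) or Loxl3 (0.02, adjusted p = 0.877), which does not show that the effects were equal. The Col6a1 difference was called without EMT6 control library 3 (-0.22, adjusted p = 0.0167). P4ha2 was not called either (0.48, adjusted p = 0.114) and was called without EMT6 KO library 1 (adjusted p = 0.0125) and without the low-count filter (adjusted p = 0.000162).

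**Figure D5:**
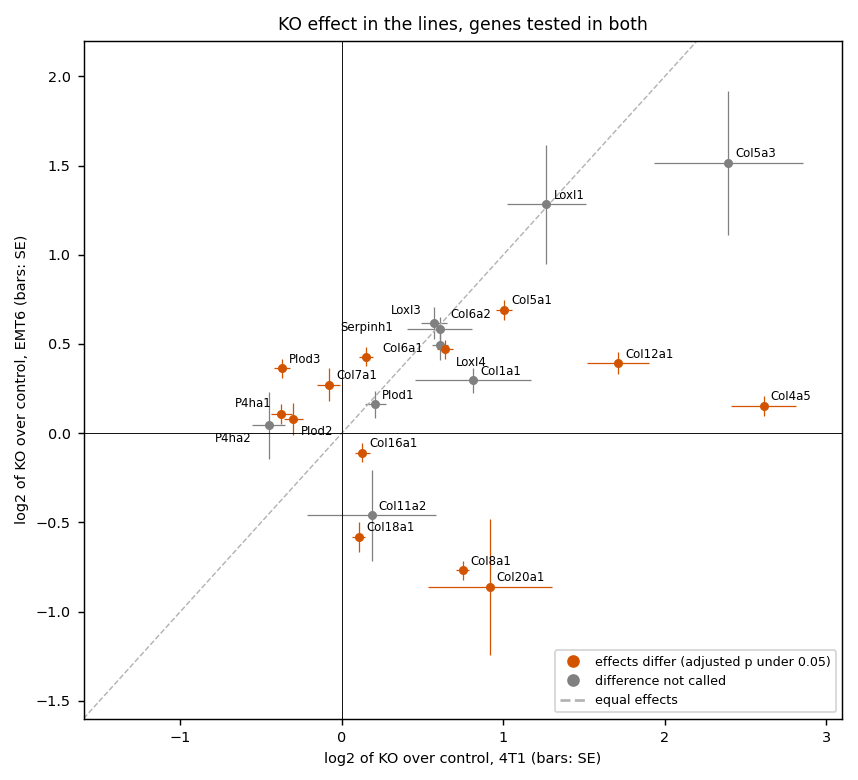
Fitted log2 of KO over control in EMT6 against that in 4T1 for the 22 genes tested in both lines, with the SE as bars and a dashed line of equal effects; orange points are the 13 genes whose effects were called different. Col8a1 (-0.77 in EMT6, 0.75 in 4T1) lies in the lower right and Plod3 (0.36 in EMT6, -0.37 in 4T1) in the upper left.

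Genes that serve procollagen outside the set were read from lists. Of 10 tested genes of procollagen hydroxylation, glycosylation and folding in 4T1, 3 were called higher and 4 lower (70.0%, against 57.0% of all tested genes, median 0.01). P4hb, the beta subunit shared by the prolyl 4-hydroxylases, fell by 0.48 ± 0.04 on the log2 scale (edgeR, adjusted p = 1.66e-09), to 151 ± 6.63 FPKM in KO, against 200.0 ± 9.88 FPKM in controls. Ppib and Crtap, partners of P3h1 in a prolyl hydroxylase complex, fell by 0.50 ± 0.05 and 0.61 ± 0.06, while P3h1, the hydroxylase of that complex, rose by 0.77 ± 0.12 (adjusted p = 8.03e-06). EMT6 had 5 of 12 called higher and 2 lower (58.3%, near the 56.0% of all tested genes, median 0.13). P3h1, P3h3 and the peptidyl-prolyl isomerase Fkbp7 rose by 0.41 ± 0.06, 0.46 ± 0.07 and 0.45 ± 0.09, and P3h2 fell to 6.37 ± 0.554 FPKM in KO, against 15.9 ± 0.885 FPKM in controls (-1.32 ± 0.08, adjusted p = 1.01e-09).

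Of the 10 tested genes of procollagen export from the endoplasmic reticulum, 2 were called higher and 6 lower in 4T1 (median -0.15), the named ones being Mia2, Sec31a, Sec13 and Sar1b, which fell by 0.24 to 0.36. The number called higher was 0 without KO library 2 and 1 without KO library 1 or 3, without control library 1 or 3, with DESeq2 and without the low-count filter. EMT6 had 4 of 11 called higher and 1 lower (median 0.06): the cargo receptor Mia3 and the coat components Sar1a and Sec23a rose by 0.40 ± 0.05, 0.30 ± 0.06 and 0.21 ± 0.06, and Creb3l1, a transcription factor of secretory genes, fell by 1.15 ± 0.13 (adjusted p = 3.20e-06). Among 5 tested proteases and enhancers that process procollagen or crosslink type IV collagen, 0 were called higher by edgeR in 4T1 (0 also at an unadjusted p under 0.05, with DESeq2 and with limma-voom) and 4 lower: Pcolce2 (12.1 ± 0.703 FPKM in KO, 21.9 ± 0.764 FPKM in controls, -0.94 ± 0.06), Pxdn (-0.52 ± 0.05), Bmp1 (-0.47 ± 0.04) and Adamts14 (-0.22 ± 0.06), the last not with total-count scaling (adjusted p = 0.0756). EMT6 had 3 of the 5 called higher and 1 lower: the procollagen C-proteinase Bmp1 rose by 0.45 ± 0.08, the peroxidasin Pxdn by 0.65 ± 0.14 and Pcolce2 by 0.53 ± 0.19, and Adamts14 fell by 1.06 ± 0.08. The Pcolce2 call was lost without KO library 3 or control library 1 or 3 (adjusted p 0.0827 to 0.114). The shares called were 80.0% of the export genes in 4T1, 45.5% of them in EMT6 and 80.0% of the processing genes in each line. Of all tested genes, 57.0% were called in 4T1 (28.0% higher, 29.0% lower) and 56.0% in EMT6 (27.9% higher, 28.2% lower). The EMT6 share of export genes thus lay below that of all tested genes.

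Matrix proteins that bind collagen were called in 3 of 4 tested cases in 4T1 (2 higher, 1 lower, median 0.23). In EMT6, 6 of 6 were called (5 higher, 1 lower, median 1.00). Of all tested genes, 57.0% were called in 4T1 (28.0% higher, 29.0% lower) and 56.0% in EMT6 (27.9% higher, 28.2% lower). The 5 called higher in EMT6 include Tgfbi, with 23, 25 and 24 counts in KO and 13, 8 and 6 counts in control libraries. Tgfbi averaged under 10 counts in controls and passed the low-count filter through its KO libraries. Its direction thus came with being tested. Fibronectin, Fn1, had 385 ± 19.5 FPKM in KO and 444 ± 44.2 FPKM in control libraries of 4T1 (-0.28 ± 0.08, adjusted p = 0.00898, a call lost with limma-voom at an adjusted p of 0.0571). In EMT6 it rose to 371 ± 5.91 FPKM in KO, against 218 ± 13.3 FPKM in controls (0.77 ± 0.06, adjusted p = 1.99e-08). Ogn, the small leucine-rich proteoglycan osteoglycin, had 366 ± 9.91 FPKM in EMT6 KO and 138 ± 5.61 FPKM in EMT6 controls (1.41 ± 0.06, adjusted p = 5.00e-12). Sparc, a collagen-binding glycoprotein, rose by 0.47 ± 0.05 in 4T1, Tnxb rose by 0.91 ± 0.09 in 4T1 and fell by 1.45 ± 0.19 in EMT6 at under 1 FPKM, and Bgn rose by 1.24 ± 0.31 in EMT6, also under 1 FPKM.

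Collagen receptors were called in 2 of 6 cases in 4T1 (1 higher, 1 lower, median 0.06) and 3 of 7 in EMT6 (1 higher, 2 lower, median -0.35). These shares of 33.3% and 42.9% lay below those of all tested genes, 57.0% in 4T1 and 56.0% in EMT6. Itga2, the alpha chain of a collagen-binding integrin, had 15.3 ± 1.40 FPKM in 4T1 KO and 47.0 ± 3.40 FPKM in 4T1 controls (-1.69 ± 0.07, adjusted p = 9.12e-10). The number called lower in 4T1 was 2 without KO library 1 or control library 3, and the number called higher was 2 without control library 2. The receptor kinase Ddr1 rose by 0.22 ± 0.05 in 4T1 and fell by 0.35 ± 0.07 in EMT6. In EMT6, Itga1 fell by 0.35 ± 0.11 (lost without KO library 1 or control library 3, adjusted p 0.0532 and 0.0616) and Itgb1 rose by 0.18 ± 0.05 (lost without KO library 1 or 2, adjusted p 0.0628 and 0.0573).

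P4ha1, P4ha2, Plod2 and Lox are known targets of the hypoxia response, though not a full list of such members. Other genes of that response were read beside the set. Of 12 such genes in 4T1, 0 were called higher by edgeR (0 also at an unadjusted p under 0.05, with DESeq2 and with limma-voom, but 1 without the low-count filter, 1 without control library 3 and 1 with the replicate block) and 8 lower, with a median of -0.56. Thus 66.7% were called, against 57.0% of all tested genes of 4T1 (28.0% higher, 29.0% lower). Ldha had 272 ± 7.21 FPKM in KO and 406 ± 36.4 FPKM in control libraries (-0.66 ± 0.05), and Slc2a1 fell by 0.85 ± 0.07, Car9 fell by 0.64 ± 0.07 and Adm fell by 2.98 ± 0.32. EMT6 had 5 of the 12 called higher and 1 lower (median 0.41). There Ldha had 612 ± 67.3 FPKM in KO and 463 ± 44.6 FPKM in control libraries (0.40 ± 0.09), Ankrd37 rose by 1.05 ± 0.26, Egln1 by 0.74 ± 0.17 (adjusted p = 0.0602 without control library 3) and Slc2a1 by 0.42 ± 0.11. Without EMT6 control library 3 the number called higher was 3, and without KO library 1 it was 8. The number called lower was 0 without KO library 1 or control library 1 and 3 without KO library 3. Of the 9 tested enzymes and chaperone of 4T1, 5 were called higher, Loxl4 and Plod1 among them, and 4 lower. In EMT6, 7 of 12 were called higher and 1, Loxl2, lower, while P4ha1, P4ha2 and Plod2 were not called. Whether the hydroxylase changes are tied to those of the hypoxia genes was not tested.

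Markers of cells that might carry collagen transcripts into a culture were low. Of 7 fibroblast markers, 1 (Pdgfra) reached 1 FPKM in each group, and their summed FPKM was 5.07 to 5.39 in 4T1 KO, 4.77 to 5.77 in 4T1 control, 4.43 to 5.36 in EMT6 KO and 5.28 to 5.89 in EMT6 control libraries. The fibroblast markers Lum and Dpt had 0 counts in all 12 libraries, and Dcn had at most 3 counts in any. The 5 endothelial markers summed to at most 0.95 FPKM, the 6 leukocyte markers to at most 0.82 FPKM and the 5 markers of smooth muscle and pericytes to at most 0.71 FPKM in any library. The 5 epithelial markers summed to 1317 to 1394 FPKM in 4T1 KO and 1839 to 1913 FPKM in 4T1 control libraries, and to 378 to 392 FPKM in EMT6 KO and 347 to 414 FPKM in EMT6 control libraries. In 4T1, Krt8 (-0.79), Krt18 (-0.43) and Epcam (-1.13) were called lower in KO, and Krt14 and Cdh1 were not called. In EMT6, Krt18 fell to 32.5 ± 1.47 FPKM in KO, against 76.2 ± 4.31 FPKM in controls (-1.23 ± 0.07, edgeR, adjusted p = 2.64e-10). Epcam (-1.59 ± 0.32, adjusted p = 0.000461) and Krt14 (-3.15 ± 0.49, adjusted p = 4.71e-05) were also called lower there, at under 1 FPKM in KO. Krt8, which makes up most of the EMT6 sum, was called higher with 352 ± 8.59 FPKM in KO and 293 ± 32.5 FPKM in controls (0.26 ± 0.07, adjusted p = 0.00632), and Cdh1 was at 0.0067 FPKM in both groups. The part of these differences in the collagen changes was not tested. Of the 38 genes, 22 overlap another gene of the tables, and no source used here says whether the authors counted by strand, so reads of such pairs cannot be told apart.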

How the data were processed

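RNA-seq of 12 libraries was used. Per the submitters' processing notes, cutadapt 1.9.1, HISAT2 2.2.1, HTSeq 0.6.1, DESeq2 and the genome GRCm38 were used, and the notes assign no role to each. The authors deposited raw read counts and FPKM per gene for each line, and FPKM recomputed from the deposited counts, exonic sizes and library totals matched all 340146 values of each line within 0.0051. From the counts, KO was compared with control separately in each line in R 4.3.3 with edgeR 4.0.16: genes were filtered with filterByExpr, libraries scaled by TMM, and a robust quasi-likelihood test run with Benjamini-Hochberg adjustment over all tested genes. Genes that did not pass that filter have no test. The fits' biological coefficients of variation were 4.82% (4T1) and 6.73% (EMT6). The difference between lines was the interaction term of a joint fit to the 12 libraries, restricted to genes kept in each line's own fit. All tests were 2-sided. All libraries carry the same batch label. Between libraries of a group, counts differed by a chi-square per degree of freedom of 2.44 to 11.7, so none was treated as a repeat of another.

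The genes and lists were chosen with earlier results of these data known. Values per library are given for up to 14 called genes per line with at least 1 FPKM and no overlap of groups, by largest change, for the 5 most abundant genes of each line, for genes called in opposite directions in the lines, and for Nedd4; from each further list up to 4 called genes per line with the lowest adjusted p are named. Values per library of Col4a5 and Col1a1 in 4T1 and of Col5a2 in EMT6 were added after they were seen. Start windows came from RefSeq promoters on GRCm38.p6, matched by symbol. Alternatives were DESeq2 1.42.0, limma-voom (limma 3.58.1), DESeq2 size factors in edgeR, total counts only, no low-count filter, a replicate block and leaving out each library. The fits were tested on simulated counts.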

Additional observations from a re-analysis of the deposited data

Results flagged for a closer look

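A difference between the lines in the KO effect, by the interaction term of edgeR, was called for 13 of the 22 genes tested. This share of 59.1% was close to the 59.9% of all 12006 genes tested. The EMT6 effect minus the 4T1 effect on the log2 scale was -2.48 for Col4a5, -1.80 for Col20a1, -1.54 for Col8a1, -1.34 for Col12a1, -0.71 for Col18a1, -0.33 for Col5a1, -0.26 for Col16a1 and -0.19 for Loxl4. It was 0.71 for Plod3, 0.46 for P4ha1, 0.36 for Plod2, 0.33 for Col7a1 and 0.26 for Serpinh1. Among these 13 genes, the enzymes apart from Loxl4 had the higher effect in EMT6, as had Serpinh1 and Col7a1, and the chains apart from Col7a1 the lower one. That split was read from the values and was not tested.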

How the results depend on the processing

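No call changed direction, and the number of collagen and collagen-modifying genes called stayed within 1.5 times the reported number under every alternative run. Genes called higher in 4T1 numbered 16, with 15 to 17 under other tools, scalings and filters and 12 to 16 when a library was left out. Those called lower numbered 4 throughout. In EMT6, 21 were called higher, with 20 to 22 and 17 to 21, and 3 lower, with 3 to 4 when a library was left out. Differences between the lines numbered 13, with 12 to 14 and 11 to 14. Of 25 genes in 4T1, 18 kept their side of the threshold in every alternative, as did 23 of 31 in EMT6 and 16 of 22 for the difference between the lines. The replicate block gave 15 and 4 in 4T1, 20 and 3 in EMT6, and 13 differences. With it Col20a1 in 4T1 (adjusted p = 0.0634), Lox in EMT6 (adjusted p = 0.0654) and, among the list genes, Slc2a1 in EMT6 (adjusted p = 0.0520) lost their calls. Counts in the further lists moved by over 1.5 times in these cases. Procollagen export genes called higher in 4T1 numbered 2, and 0 to 1 with DESeq2, without the low-count filter or without any library but control library 2. The gene called lower among collagen-binding proteins in 4T1 was lost with limma-voom. Receptors called in 4T1, 1 higher and 1 lower, each numbered up to 2, and in EMT6, 1 higher and 2 lower, they numbered 0 to 2 and 1 to 2. Hypoxia genes called in EMT6, 5 higher and 1 lower, numbered 3 to 8 and 0 to 3, and 1 was called higher in 4T1 with the replicate block, without the filter and without control library 3. Libraries with the same number did not deviate together (correlations -0.0233 to 0.0091 in 4T1 and -0.1305 to -0.0071 in EMT6). Those with different numbers had -0.0397 to 0.0498 in 4T1 and -0.0225 to 0.1271 in EMT6. Deviations were taken from means of 3 libraries, so these correlations depend on each other and cannot exclude a pairing. The cause of the changes under left-out libraries and filters was not tested. With 3 libraries per group and 3 counts worth up to 0.219 CPM, the calls of chains under 1 FPKM rest on few counts, and a gene with no test is not shown to be unchanged.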
